A study of Mus musculus with 9 samples.

Results

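The genes described here are the transcripts of the mouse mitochondrial genome and the nuclear copies of mitochondrial DNA that stand together on chromosome 1. They were chosen as every gene whose symbol starts with mt-, whatever its biotype, and every gene that starts within a short stretch of chromosome 1 holding unprocessed pseudogenes, including Gm28661. The rule found 44 of the 54532 genes in the count table, namely 13 mitochondrial mRNAs, 2 mitochondrial rRNAs, 22 mitochondrial tRNAs, and 7 nuclear copies. The symbols, biotypes, and positions of the mt- genes match a mitochondrial origin, and for the 7 copies the sequences described below do. All 44 have the same coordinates in the GENCODE M21 annotation of GRCm38.

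Bulk RNA-Seq was performed on retinas of 9 wild-type C57BL/6 mice at P17, with 3 separate mice in each group. Control mice were kept in room air, although their labels also give DMSO. OIR mice went through the oxygen-induced retinopathy model, in which pups spend time in hyperoxia before a return to room air at P12, and received an intraocular injection of the vehicle DMSO at P12. Treated OIR mice went through the same model and received a single intraocular injection at P12 of 32-134D, a small molecule that inhibits hypoxia-inducible factors (HIFs), with the dose given as 70 ng in one label and as 70 ng/μL in another. Mice are named by the numbers on their labels, with 1, 6, and 7 in the control group, 3, 5, and 6 in the OIR group, and 2, 5, and 10 in the treated OIR group.

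Total counts ranged from 16864135 to 27213184 in control, from 18556723 to 21071371 in OIR, and from 16028731 to 18560178 in treated OIR mice. Lens tissue markers stood apart in 1 library, treated OIR mouse 2, where a list of 20 lens genes took 15.3% of counts, compared with at most 0.171% in the other 8 mice. Rod photoreceptor markers, as a list of 10 genes, held 5.27% to 7.11% of counts in the control group, 4.39% to 6.57% in the OIR group, and 4.06% to 6.62% in the treated OIR group. Treated OIR mouse 2 was lowest for retinal markers, with 0.137% for a list of 5 Müller glia genes and 0.0972% for one of 11 inner neuron genes, against at least 0.302% and 0.143% in each of the other mice. Its rod marker share, 4.06%, was also the lowest of the 9.

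The mitochondrial genome is a small circle that encodes subunits of the respiratory chain and of ATP synthase, together with the rRNAs and tRNAs that translate them. Both of its strands are transcribed into long precursors, and the tRNAs that stand between most of the other genes are cut out, which frees the mRNAs and rRNAs on either side. Photoreceptors hold dense mitochondria in their inner segments and are among the most oxygen-consuming cells of the body. Pieces of mitochondrial DNA have also been inserted into nuclear chromosomes during evolution, and an insertion that is still nearly identical to its source yields reads that fit both places.

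The first set of sequences shows the layout of the precursor RNA where the large rRNA meets an mRNA, at MT:2656-2770 on the plus strand (GENCODE M21 transcripts, GRCm38). Capitals mark mt-Tl1, the gene of a leucine tRNA, and the lower-case letters on each side are the last 20 bases of mt-Rnr2 and the first 20 of mt-Nd1.
mt-Rnr2, mt-Tl1, mt-Nd1: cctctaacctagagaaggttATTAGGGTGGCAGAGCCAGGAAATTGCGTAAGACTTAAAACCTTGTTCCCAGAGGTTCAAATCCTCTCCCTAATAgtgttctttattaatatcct
The 75 bases of mt-Tl1 fill the space between the 2 longer genes, so reads that cross either border belong to more than 1 annotated gene.

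The second set shows why the nuclear copies and the mitochondrial genes are described together. The first 60 bases of mt-Co2 (MT:7013-7072, plus strand) and of Gm28661 (chr1:24615506-24615565, minus strand) are the same, and the lack of capitals marks that no base differs.
mt-Co2: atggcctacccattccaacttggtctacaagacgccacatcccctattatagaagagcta
Gm28661: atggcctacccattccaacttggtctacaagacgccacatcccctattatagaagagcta
The identity ran through all 681 bases of Gm28661, which lacks only the last 3 bases of mt-Co2. A read from inside this gene therefore has 2 equally good places in the genome, and how the authors' counting assigned such reads is not given in the sources used here.

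The third set shows the pair that a base at the start tells apart, where capitals mark the differing base. The first 30 bases of mt-Nd3 (MT:9459-9488, plus strand) and Gm28438 (chr1:24613090-24613119, minus strand) differ by T3C, counted from 1 at the first base of mt-Nd3.
mt-Nd3: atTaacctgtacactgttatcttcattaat
Gm28438: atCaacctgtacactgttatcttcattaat
No other difference was found in the 345 bases of Gm28438.

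The fourth set shows the edge at which the copied stretch begins, inside mt-Co1. Bases 1054 to 1098 of mt-Co1 (MT:6381-6425, plus strand) are set against bases 1 to 45 of Gm29216 (chr1:24616153-24616197, minus strand), with the 6 differing bases in capitals.
mt-Co1: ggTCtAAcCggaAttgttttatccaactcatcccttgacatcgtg
Gm29216: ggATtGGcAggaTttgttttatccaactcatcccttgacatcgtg
The first 9 bases of Gm29216 fell outside the alignment, and over the next 483 bases, which reach the end of mt-Co1, the only difference was A1066T, counted from the first base of mt-Co1.

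Of the other copies, Gm10925 matched the first 678 bases of mt-Atp6, Gm28437 the first 783 of mt-Co3, Gm10222 the first 294 of mt-Nd4l, and Gm28439 the first 876 of the 1378 bases of mt-Nd4, with no difference in any of them. All 7 copies lie on the minus strand between 24611535 and 24616197 of chromosome 1, a stretch of 4663 bases, in the same order as their counterparts between 6390 and 11042 of the mitochondrial genome, a stretch of 4653 bases. From the start of mt-Nd3 to the start of mt-Nd4l there are 418 bases in the mitochondrial genome and 419 on chromosome 1, while the distances from the start of mt-Co2 to those of mt-Atp6 and mt-Nd3 were equal in both places. Of the mitochondrial genes, 6 mRNAs (mt-Co2, mt-Atp8, mt-Atp6, mt-Co3, mt-Nd3, and mt-Nd4l) and 5 tRNAs lie wholly inside the copied stretch, and mt-Co1 and mt-Nd4 lie partly inside it.

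Levels per length differed sharply between genes inside and outside the copied stretch. In control mice, the 5 mRNAs outside it had mean levels of 1033 to 4940 CPM per kb (CPM is counts scaled to the library size with TMM factors, here divided by gene length), whereas the 6 mRNAs inside it had 2.0 to 170.3 CPM per kb. The medians were 2153 CPM per kb outside and 54.2 CPM per kb inside. mt-Co1 and mt-Nd4, which reach beyond the stretch, had 6142 and 2125 CPM per kb.

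**Figure D1:**
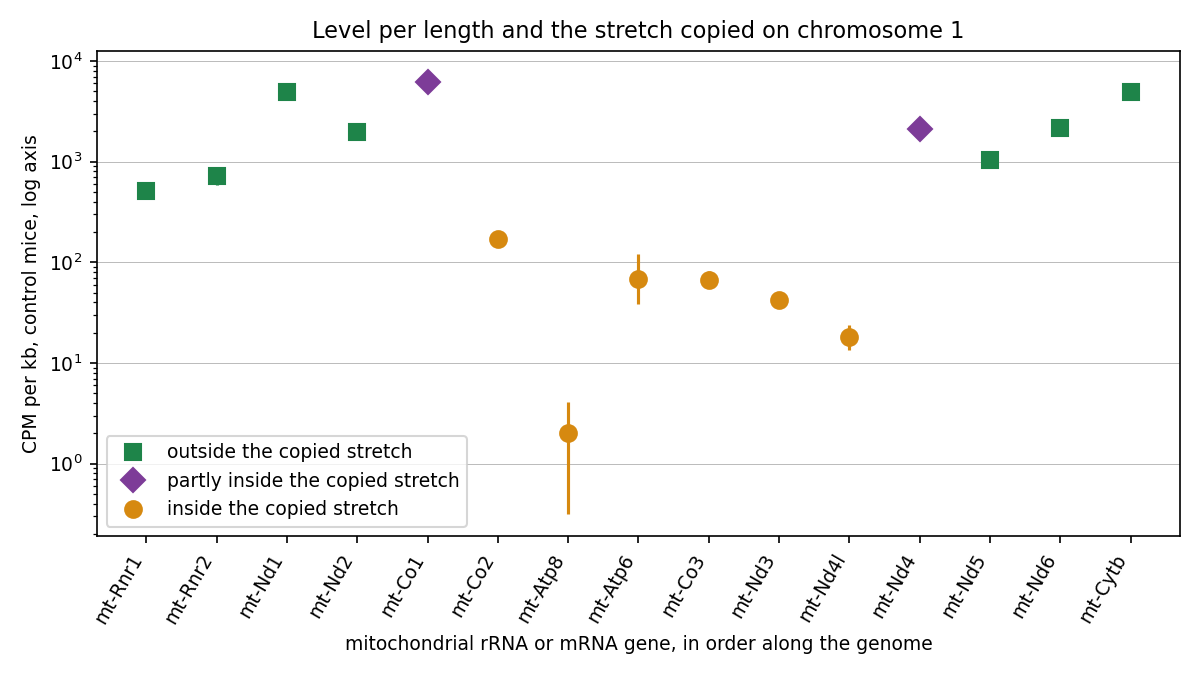
Mean CPM per kb of each mitochondrial rRNA and mRNA gene in the 3 control mice on a log axis, in genome order, with lines from the lowest to the highest mouse. The 6 mRNAs inside the stretch copied on chromosome 1, at 2.0 to 170.3 CPM per kb, sit below every gene that is outside or partly inside it, the lowest of which is mt-Rnr1 at 513.1 CPM per kb.

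In raw counts, the 6 mRNAs inside held 1689 to 5996 counts per mouse in all and the 5 outside held 122840 to 398211. Low levels of these 6 mRNAs were thus present in every library, and the part of the read assignment in them was not tested. Since levels of genes inside the stretch may depend on that assignment, levels were compared between genes only among those that reach beyond it. Copies still cover 31.3% of mt-Co1 and 63.6% of mt-Nd4. The levels per length of both may therefore depend on the assignment too, and their places in the order are uncertain. Among the genes that reach beyond the stretch, mt-Co1, the catalytic subunit of cytochrome oxidase, was highest in control mice at 6142 ± 1280 CPM per kb (SD, n = 3). mt-Nd1, a membrane subunit of complex I, at 4940 ± 862 CPM per kb, and mt-Cytb, the cytochrome b of complex III, at 4927 ± 994 CPM per kb, followed and did not differ beyond their spread. The complex I subunits mt-Nd6, mt-Nd4, and mt-Nd2 came next at 2153 ± 450, 2125 ± 399.5, and 1985 ± 373 CPM per kb, within 1 SD of each other, and mt-Nd5 was lowest of the mRNAs at 1033 ± 161 CPM per kb. The rRNAs were lower than these, with mt-Rnr2 at 719.5 ± 143.5 and mt-Rnr1 at 513.1 ± 70.2 CPM per kb. How RNA was selected for the libraries is not given, so this order of rRNAs and mRNAs may not be that in the tissue.

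The order was the same in OIR mice for the leading gene, mt-Co1 at 4060 ± 393 CPM per kb, and the mean of mt-Cytb at 3016 ± 338 CPM per kb was above that of mt-Nd1 at 2529 ± 244 CPM per kb, with ranges that overlapped. Only 14 bases of mt-Nd6, the single mRNA of the other strand, overlap mt-Nd5, but the library's strand is not known and RNA from either strand of the genome could be counted as mt-Nd6. The same holds for the 8 tRNAs on the minus strand. Neighboring mt-Atp8 and mt-Atp6 share 43 bases, and mt-Nd4l and mt-Nd4 share 7.

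Of the 44 genes, 33 passed the filter on low counts, comprising 12 mRNAs, both rRNAs, 12 tRNAs, and all 7 copies. The 11 that did not pass were mt-Atp8 and 10 tRNAs, with at most 17 counts in any mouse, and mt-Tf, mt-Td, and mt-Tk were at 0 in every mouse. A mean of at least 1000 counts per mouse was reached by 11 genes, which are mt-Rnr1, mt-Rnr2, mt-Nd1, mt-Nd2, mt-Co1, mt-Co2, mt-Nd4, mt-Nd5, mt-Nd6, mt-Cytb, and Gm28661.

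In OIR compared with control mice, mitochondrial transcripts held a smaller part of the library. The 13 mRNAs together made up 2.66%, 2.49%, and 3.15% of counts in control mice 1, 6, and 7. In OIR mice 3, 5, and 6 they made up 1.64%, 2.01%, and 1.68%. The groups did not overlap, with means of 2.77% ± 0.35 and 1.78% ± 0.20 (SD, n = 3 each). The rRNAs made up 0.160% ± 0.017 of counts in control and 0.0731% ± 0.0055 in OIR mice, the tRNAs 0.00507% ± 0.00027 and 0.00288% ± 0.00033, and the nuclear copies 0.0197% ± 0.0016 and 0.0131% ± 0.0021, again without overlap. In bulk retina, fewer cells rich in mitochondria and less mitochondrial RNA per cell cannot be told apart.

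Across the 17540 genes tested between OIR and control mice, 0.941% had an adjusted p below 0.05, and 0.507% did so with lower and 0.433% with higher levels in OIR mice. Of the 33 members tested, 4 fell by this criterion, namely mt-Rnr1, mt-Nd2, mt-Co2, and Gm28661, and none rose. Reads of mt-Co2 and Gm28661 cannot be told apart, so their calls are not independent. An unadjusted p below 0.05 was reached by 19 members, all lower in OIR, beside 12.7% of all genes tested, and 20 members had lower values in all 3 OIR mice than in any control mouse, beside 17.2% of all genes. The log2 fold changes of the 33 members lay below 0, as did those of 46.5% of all genes, and ran from -1.41 to -0.05, with a median of -0.77 and a median over all genes tested of 0.03.

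**Figure D2:**
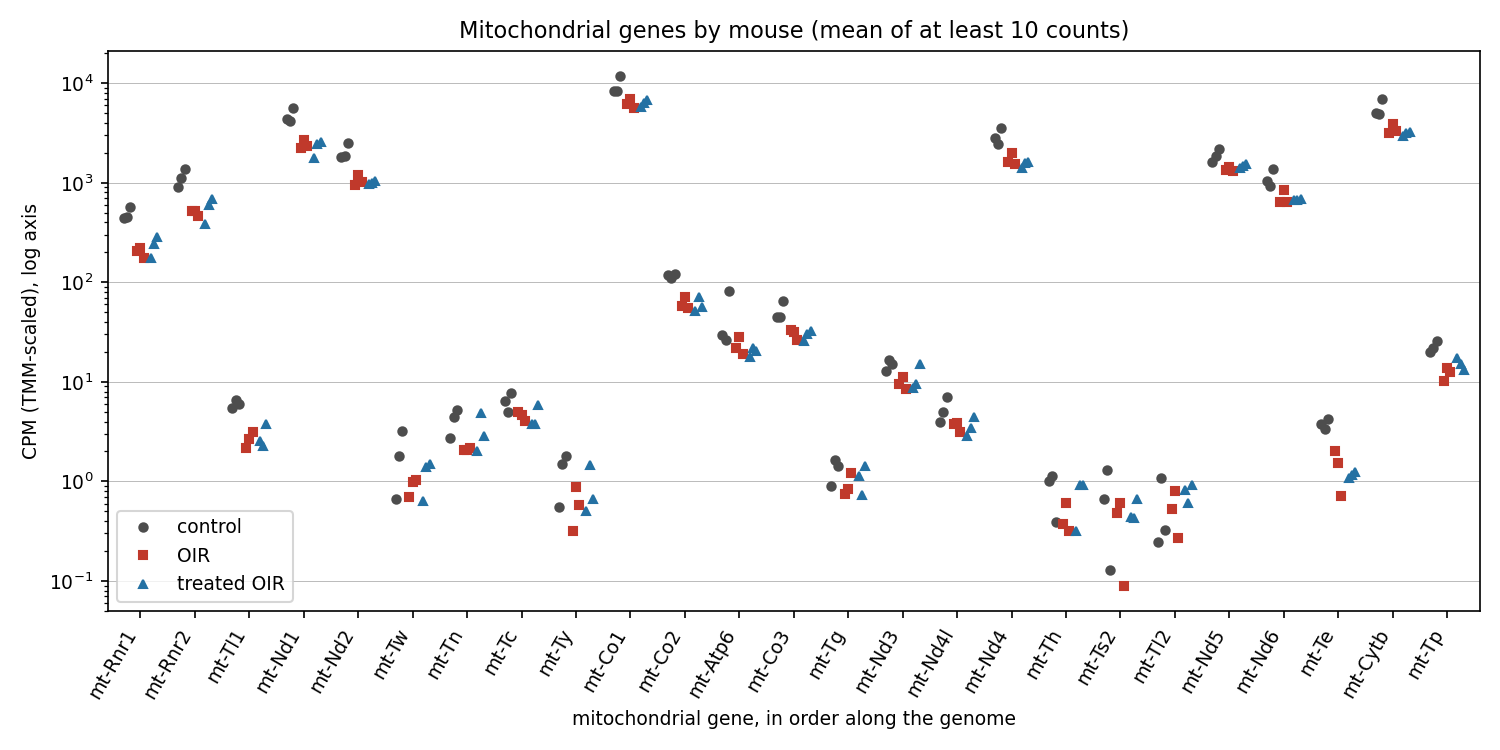
CPM (library sizes scaled by TMM, log axis) of the mitochondrial genes with a mean of at least 10 counts, in genome order, with 1 point for each of the 9 mice. For mt-Rnr1, the 3 OIR mice lie between 177.6 and 219.9 CPM and the 3 control mice between 445.5 and 567.2 CPM, and the treated OIR mice lie between 177.7 and 285.7 CPM.

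The rRNAs, on which the mitochondrial ribosome is built, had the largest differences among the well-counted members. mt-Rnr1 (MT, 70 to 1024), the rRNA of the small ribosomal subunit, was at 445.5, 457.5, and 567.2 CPM in control mice 1, 6, and 7 and at 208.6, 219.9, and 177.6 CPM in OIR mice 3, 5, and 6. Every OIR mouse lay below 50% of the lowest control mouse. The log2 fold change was -1.28 (SE 0.19, edgeR adjusted p = 0.0407), which places OIR mice at 41.2% of control.

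mt-Rnr2 (MT, 1094 to 2675), the rRNA of the large subunit, was at 917.4, 1127, and 1371 CPM in control and 523.3, 524.0, and 460.3 CPM in OIR mice. The groups were well apart, with a log2 fold change of -1.18 (SE 0.23), but the adjusted p of 0.0528 missed the threshold. mt-Tl1, the tRNA printed above between mt-Rnr2 and mt-Nd1, had a log2 fold change of -1.18 (SE 0.27, edgeR adjusted p = 0.0637) on a mean of 77.8 counts.

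Among the mRNAs of complex I, which takes electrons from NADH, mt-Nd2 passed the test. Its levels were 1830, 1845, and 2507 CPM in control mice 1, 6, and 7 and 943.1, 1206, and 1023 CPM in OIR mice 3, 5, and 6. The lowest control mouse was above the highest OIR mouse, and the log2 fold change was -0.96 (SE 0.16, edgeR adjusted p = 0.0442), or 51.3% of control (95% interval 39.7% to 66.4%).

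mt-Nd1 was at 4373, 4138, and 5670 CPM in control and 2255, 2688, and 2318 CPM in OIR mice, with a log2 fold change of -0.97 (SE 0.19) and an adjusted p of 0.0562 that missed the threshold. mt-Nd4, whose first part is copied in Gm28439, had a log2 fold change of -0.76 (SE 0.18, edgeR adjusted p = 0.0644). mt-Nd6 had -0.67 (SE 0.18) and mt-Nd5 -0.47 (SE 0.14), with adjusted p of 0.0829 and 0.106. mt-Nd5 thus had the smallest difference of the mRNAs with at least 1000 counts, though its OIR mice, at 1299 to 1429 CPM, all stayed below its control mice, at 1606 to 2193 CPM. The less counted mt-Nd3 and mt-Nd4l, both inside the copied stretch, had log2 fold changes of -0.60 (SE 0.23) and -0.58 (SE 0.28), with adjusted p of 0.163 and 0.249.

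mt-Cytb, the only subunit of complex III that mitochondria encode, was at 5053, 4910, and 6947 CPM in control mice and 3168, 3891, and 3292 CPM in OIR mice. The groups did not overlap, and the log2 fold change of -0.71 (SE 0.17) had an adjusted p of 0.0714.

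Of the cytochrome oxidase subunits, mt-Co2, which takes electrons from cytochrome c, passed the test. It was at 117.2, 110.0, and 122.3 CPM in control mice 1, 6, and 7 and at 58.2, 70.9, and 55.8 CPM in OIR mice 3, 5, and 6. Control mice lay close together, and the log2 fold change was -0.92 (SE 0.14, edgeR adjusted p = 0.0407). With the counts of its identical copy Gm28661 added in each mouse, the log2 fold change was -0.92 (SE 0.12, edgeR adjusted p = 0.0412). This alternative, which summed every copy with its counterpart, was chosen after the data were seen. It called 3 of 26 members lower, beside 88 of 17533 genes.

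mt-Co1, the most counted member, was at 8329, 8366, and 11773 CPM in control and 6210, 6909, and 5698 CPM in OIR mice. Its log2 fold change of -0.60 (SE 0.18) had an adjusted p of 0.106. mt-Co3, the other subunit of the enzyme, had -0.77 (SE 0.17, edgeR adjusted p = 0.0612), with 45.2 to 64.7 CPM in control and 26.5 to 32.9 CPM in OIR mice.

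For ATP synthase, mt-Atp6, which forms part of its proton channel, was at 29.9, 26.1, and 82.7 CPM in control mice 1, 6, and 7 and at 21.7, 28.1, and 19.2 CPM in OIR mice 3, 5, and 6. The groups overlapped, and control mouse 7 alone stood high, with a log2 fold change of -1.0 (SE 0.40, edgeR adjusted p = 0.170) over all mice. Without control mouse 7 the log2 fold change of mt-Atp6 was -0.28. mt-Atp8 was too low to be tested, with 1 to 17 counts in control mice.

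**Figure D3:**
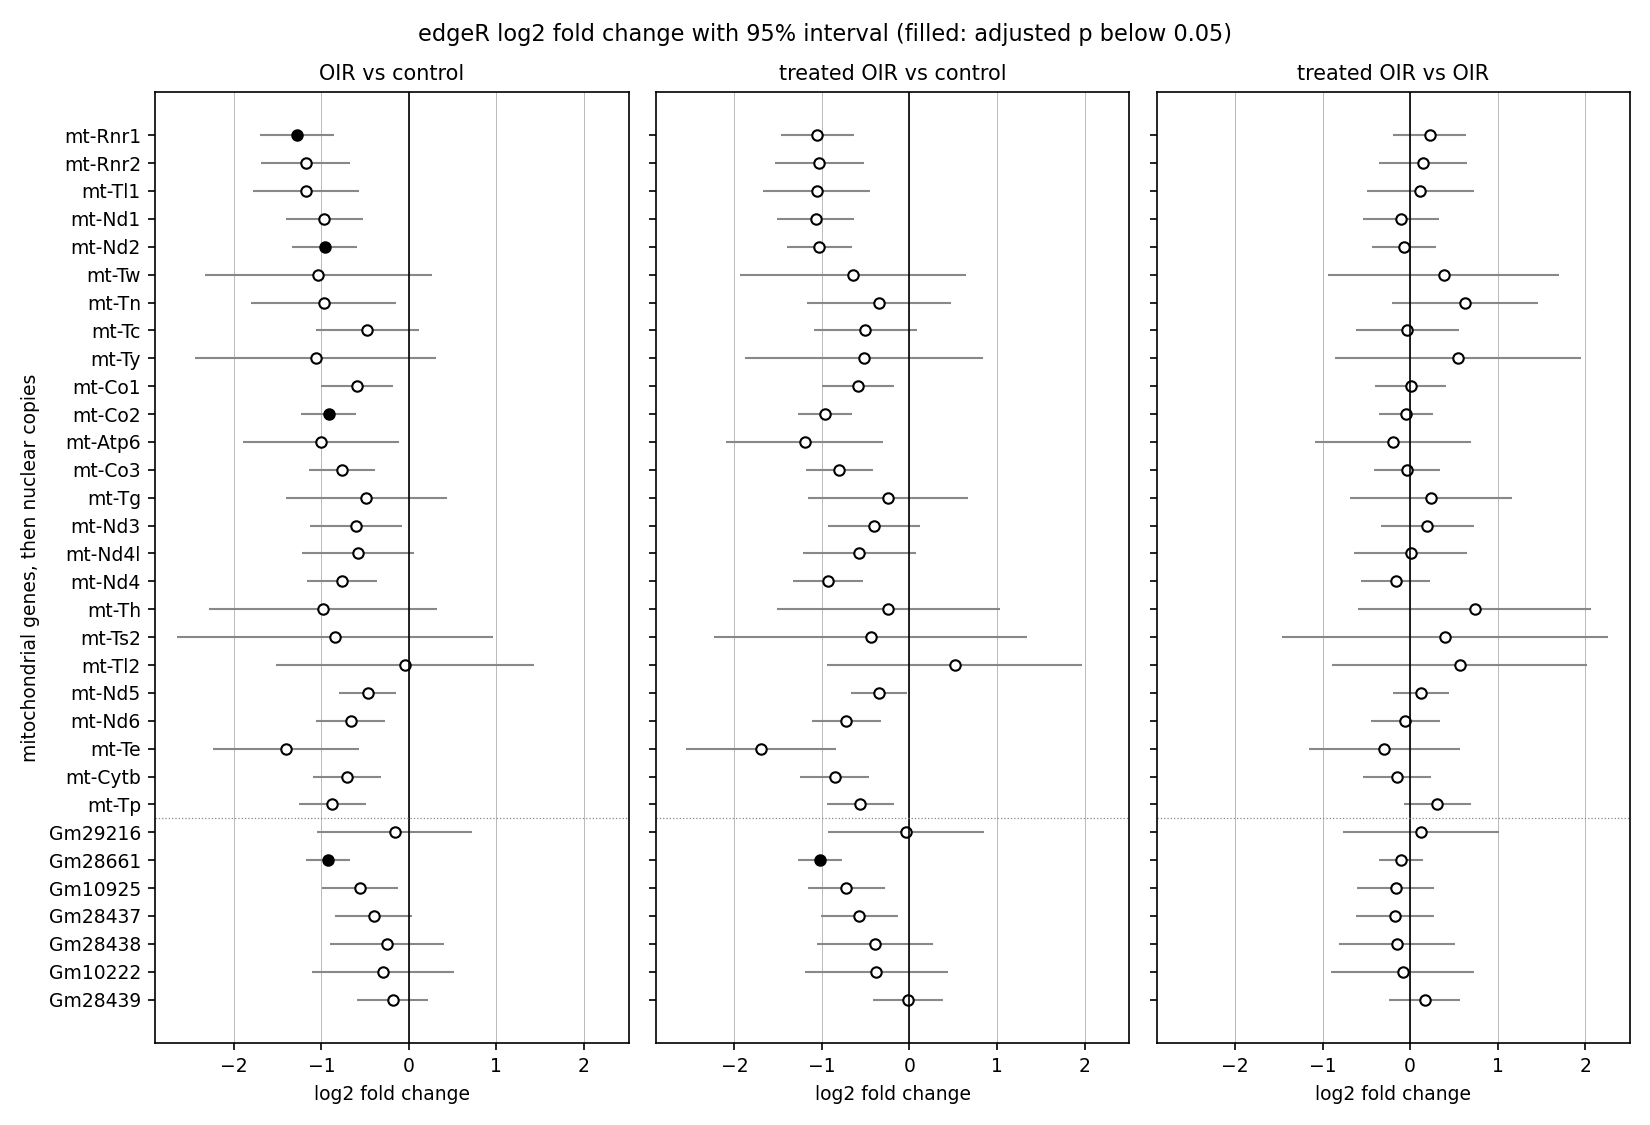
edgeR log2 fold changes with 95% intervals in the 3 comparisons for the 32 members with a mean of at least 10 counts, with mitochondrial genes in genome order above the dotted line and nuclear copies under it. All points lie below 0 for OIR against control, and filled points mark an adjusted p below 0.05, reached by 4 members there, by Gm28661 alone for treated OIR against control, and by none for treated OIR against OIR.

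The tRNAs had few counts, and none of the 12 tested passed. The most counted, mt-Tp, the proline tRNA, and mt-Te, the glutamate tRNA with the lowest log2 fold change of all members, are shown here because both lie on the minus strand and were covered in every mouse, with no letter in capitals (GENCODE M21 transcripts, GRCm38, minus strand, at MT:15356-15422 and MT:14071-14139).
mt-Tp: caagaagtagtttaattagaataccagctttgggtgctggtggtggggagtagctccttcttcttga
mt-Te: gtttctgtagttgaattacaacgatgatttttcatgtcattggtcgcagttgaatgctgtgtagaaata
mt-Tp had 572, 443, and 397 counts in control mice 1, 6, and 7 and 193, 296, and 282 counts in OIR mice 3, 5, and 6. Its log2 fold change was -0.87 (SE 0.17, edgeR adjusted p = 0.0539).

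mt-Te had 107, 68, and 66 counts in control and 38, 33, and 16 counts in OIR mice, without overlap on the CPM scale either. The log2 fold change was -1.41 (SE 0.37, edgeR adjusted p = 0.0827). The other tested tRNAs ranged from -1.18 for mt-Tl1 to -0.05 for mt-Tl2, with standard errors up to 0.89, so differences of the size seen in the rRNAs were not detectable for most of them.

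Of the nuclear copies, only Gm28661 was called lower in OIR mice. All 681 of its bases are identical to mt-Co2, so its counts cannot be attributed to the nuclear copy. Gm28661 was at 117.7, 103.9, and 113.0 CPM in control mice 1, 6, and 7. In OIR mice 3, 5, and 6 it was at 57.7, 67.3, and 51.2 CPM, and levels were close to those of mt-Co2 in each mouse. Its log2 fold change was -0.92 (SE 0.11, edgeR adjusted p = 0.0380). The copies of mt-Atp6 and mt-Co3, Gm10925 and Gm28437, had log2 fold changes of -0.56 (SE 0.19) and -0.40 (SE 0.19), with adjusted p of 0.135 and 0.246. The other 4 copies ranged from -0.30 to -0.16 with adjusted p from 0.564 to 0.843, and the values of each overlapped between groups. Gm29216, the copy of the end of mt-Co1, was 412, 261, and 349 counts in control and 235, 483, and 208 counts in OIR mice, and without control mouse 7 its log2 fold change turned to 0.12.

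The calls in this comparison were sensitive to single mice, among the members and over all genes alike. When any control mouse, any OIR mouse, or treated OIR mouse 5 was left out, edgeR called no member and 0% of all genes. Without treated OIR mouse 2, in which lens genes stood high, 15 members were called, all lower, beside 8.59% of all genes called lower. Without treated OIR mouse 10, 5 members were called, all lower, beside 0.736% of all genes. With sex as a covariate, inferred from the counts of Xist and of Y-linked genes, no member and 0% of all genes passed. With scaling by total counts alone no member and 0.0513% of all genes passed with lower levels. DESeq2 on all 9 mice called 15 members lower, beside 6.93% of all genes, and limma-voom called 15, beside 7.91%.

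Treated OIR mice were compared with control mice to see whether levels under the HIF inhibitor differed from those in room air. These values share the control mice with the comparison above and are not independent of it. The 13 mRNAs made up 1.28%, 1.70%, and 1.85% of counts in treated OIR mice 2, 5, and 10, a mean of 1.61% ± 0.29 (SD, n = 3), below each of the control mice. The rRNAs made up 0.0478%, 0.0861%, and 0.102%, with the lowest value in mouse 2, the library with lens genes. With crystallin genes left out of the denominator, none of the differences between group means of the shares moved by more than 1 SD between mice.

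Of all 17540 genes tested between treated OIR and control mice, 0.0228% had an adjusted p below 0.05 and 0.0114% did so with lower levels. Among the members, Gm28661, whose reads cannot be told from those of mt-Co2, was called lower and the other 32 did not pass. Its levels were 53.0, 57.6, and 53.5 CPM in treated OIR mice 2, 5, and 10, against 103.9 to 117.7 CPM in control mice, for a log2 fold change of -1.03 (SE 0.11, edgeR adjusted p = 0.0490). Without treated OIR mouse 2 the log2 fold change was -1.0 and the adjusted p for Gm28661 was 0.0626. In the leave-one-out fits no member passed except without OIR mouse 6, when 1 did, beside 0.0111% of all genes called lower.

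An unadjusted p below 0.05 was reached by 18 members, all lower, beside 8.6% of all genes, and 18 members did not overlap with control, beside 12.2%. Log2 fold changes ran from -1.70 for mt-Te to 0.52 for mt-Tl2, the only value above 0, which rested on a mean of 12.0 counts. The median was -0.57, beside 0.01 over all genes, of which 48.6% lay below 0. DESeq2 on all 9 mice called 16 members lower, beside 2.45% of all genes, and limma-voom called 13, beside 2.66%.

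The rRNAs had log2 fold changes of -1.05 (SE 0.19) for mt-Rnr1 and -1.03 (SE 0.23) for mt-Rnr2, with adjusted p of 0.102 and 0.109. Leaving out treated OIR mouse 2 gave -0.88 and -0.81. In treated OIR mice 2, 5, and 10, mt-Rnr1 was at 177.7, 244.1, and 285.7 CPM and mt-Rnr2 at 383.9, 601.9, and 683.2 CPM, so that mouse 2 was lowest for both.

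Among the mRNAs, mt-Nd1 had -1.07 (SE 0.19), mt-Nd2 -1.03 (SE 0.16), mt-Co2 -0.96 (SE 0.14), and mt-Nd4 -0.93 (SE 0.18), each with an adjusted p of 0.102. mt-Cytb had -0.86 (SE 0.17, edgeR adjusted p = 0.102) and mt-Nd6 -0.72 (SE 0.18, edgeR adjusted p = 0.126). Of the mRNAs with a mean of at least 1000 counts, mt-Co1, at -0.59 (SE 0.18, edgeR adjusted p = 0.171), and mt-Nd5, at -0.35 (SE 0.14, edgeR adjusted p = 0.240), had the smallest values. The less counted mt-Nd3 and mt-Nd4l had -0.41 (SE 0.23) and -0.57 (SE 0.29), with adjusted p of 0.369 and 0.310. mt-Atp6, also less counted, had the lowest value of the mRNAs, -1.20 (SE 0.40, edgeR adjusted p = 0.191). It ran from -1.49 to -0.48 over the other fits. mt-Co3 had -0.80 (SE 0.17, edgeR adjusted p = 0.106). mt-Nd2 was at 983.5, 994.1, and 1050 CPM in treated OIR mice 2, 5, and 10, a narrow range below the lowest control mouse at 1830 CPM. For mt-Co2 summed with Gm28661 the log2 fold change was -0.99 (SE 0.12, edgeR adjusted p = 0.0597).

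Treated OIR mice were compared with OIR mice to ask whether the inhibitor changed these transcripts within the model. No member passed the test, and neither did any of the 17540 genes tested (0%) in edgeR's quasi-likelihood test. An unadjusted p below 0.05 was reached by 4.69% of all genes, 2.39% with higher and 2.3% with lower levels, and by none of the 33 members. The groups overlapped for each of the 33 members, whereas 3.74% of all genes were higher and 5.39% lower without overlap. Of the members, 15 had a log2 fold change below 0 and 18 above it, with a median of 0.01, and 48.7% of all genes lay below 0. DESeq2 on all 9 mice called 33 genes, 0.108% of all as higher and 0.0798% as lower, and limma-voom called 1, or 0.0057%, as lower, none of them a member.

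The intervals show what size of difference these mice leave possible. For Gm28661 the log2 fold change was -0.10 (95% interval -0.35 to 0.15), for mt-Co2 -0.05 (-0.36 to 0.26), and for mt-Nd5 0.12 (-0.20 to 0.44). The most counted member, mt-Co1, had 0.01 (-0.40 to 0.41), mt-Cytb -0.15 (-0.54 to 0.24), and mt-Nd1 -0.11 (-0.54 to 0.33). For the rRNAs they were wider, at 0.22 (-0.19 to 0.64) for mt-Rnr1 and 0.15 (-0.36 to 0.65) for mt-Rnr2. Without treated OIR mouse 2, mt-Rnr1 had 0.42 and an adjusted p of 0.253.

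The make-up of the mitochondrial mRNA pool was also compared, as the share of each of the 7 mRNAs that reach beyond the copied stretch in their summed counts, without a test. Such shares do not depend on library scaling. The share of mt-Nd1 was 17.5%, 16.9%, and 16.7% in control mice 1, 6, and 7. The OIR mice 3, 5, and 6 had 13.9%, 14.2%, and 14.7%, and the treated OIR mice 2, 5, and 10 had 11.8%, 14.7%, and 14.6%. mt-Nd1 thus took a smaller share in every OIR and treated OIR mouse than in any control mouse. mt-Nd2 did so too, at 7.31% to 7.53% in the control group, 5.83% to 6.47% in the OIR group, and 5.98% to 6.56% in the treated OIR group.

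**Figure D4:**
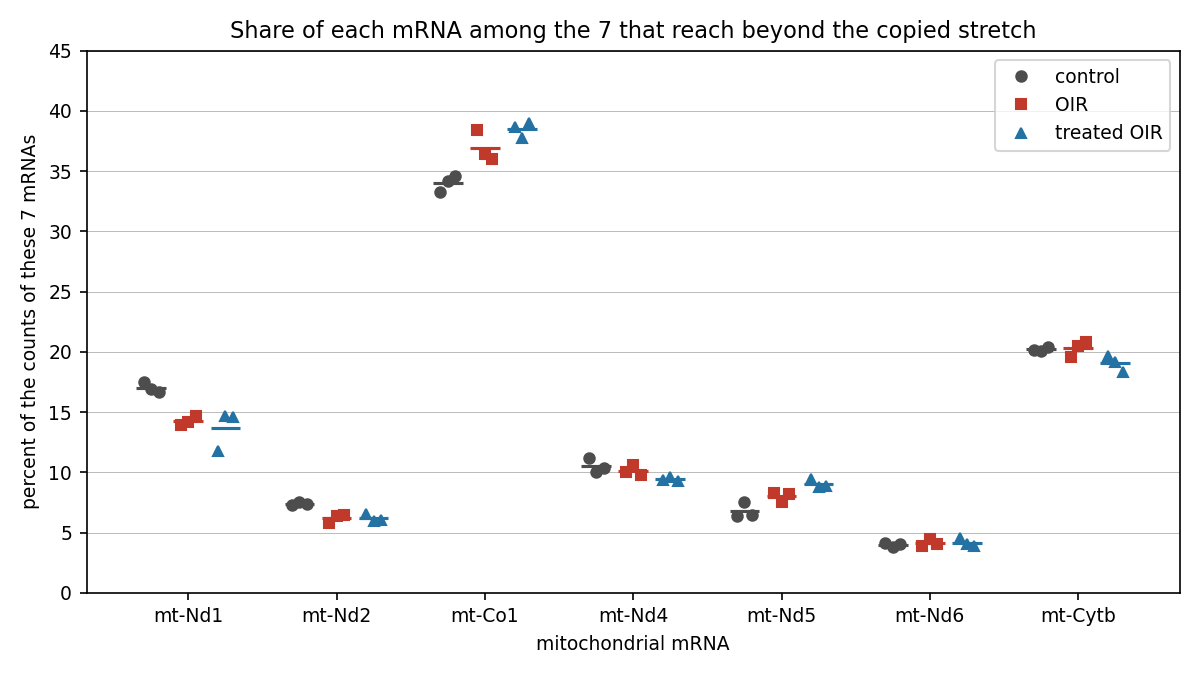
Share of each of the 7 mitochondrial mRNAs that reach beyond the copied stretch in the sum of their counts (percent, linear axis from 0), with 1 point for each of the 9 mice and bars at group means. mt-Nd1 averages 17.0% in the control group, 14.3% in the OIR group, and 13.7% in the treated OIR group, and mt-Co1 averages 34.0%, 36.9%, and 38.5%.

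mt-Co1 took a larger share, with 33.3% to 34.6% in the control group, 36.0% to 38.4% in the OIR group, and 37.7% to 39.0% in the treated OIR group. mt-Nd5 averaged 6.81% ± 0.65 in the control group, 8.02% ± 0.42 in the OIR group, and 9.05% ± 0.37 in the treated OIR group (SD, n = 3 each), and control mouse 6 at 7.56% overlapped with OIR mouse 5 at 7.53%. The shares of mt-Cytb, mt-Nd4, and mt-Nd6 overlapped between OIR and control mice, with group means of 20.2% and 20.3%, 10.5% and 10.1%, and 4.01% and 4.13%. In treated OIR mice, mt-Cytb took 18.4% to 19.7% and mt-Nd4 took 9.29% to 9.61%, both below each of the control mice. mt-Nd6 took 3.89% to 4.52% there and overlapped with control.

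Expressed as ratios within a mouse, mt-Nd5 had 36.7, 44.8, and 38.7 counts per 100 mt-Nd1 counts in control mice 1, 6, and 7. This ratio was 59.6, 53.2, and 56.0 for OIR mice 3, 5, and 6, and 80.6, 60.1, and 60.8 for treated OIR mice 2, 5, and 10. No OIR or treated OIR mouse overlapped with control for this ratio. mt-Rnr1 had 5.21 ± 0.35 counts per 100 mt-Co1 counts in the control group, 3.22 ± 0.12 in the OIR group, and 3.72 ± 0.58 in the treated OIR group. Per 100 mt-Nd1 counts, mt-Rnr1 had 10.4 ± 0.6, 8.36 ± 0.81, and 10.4 ± 0.7. Against mt-Co1 the rRNA was thus lower in the means of both OIR groups, and against mt-Nd1 the treated OIR mean lay at the control mean, without a test of either ratio.

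Copies and counterparts were next set side by side within each mouse. Gm28661 had 3370, 2097, and 1752 counts in control mice 1, 6, and 7, beside 3356, 2221, and 1897 counts of mt-Co2. It had 1080, 1443, and 1138 counts in OIR mice 3, 5, and 6, beside 1089, 1522, and 1241, and 835, 940, and 1042 counts in treated OIR mice 2, 5, and 10, beside 815, 1157, and 1100. The copy and the mitochondrial gene thus had near-equal counts in all 9 mice, from 81.2 to 102.5 counts of Gm28661 per 100 of mt-Co2.

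The log2 ratio of Gm28661 to mt-Co2 differed by -0.01 between OIR and control, by -0.05 between treated OIR and control, and by -0.04 between treated OIR and OIR mice. In two-sided exact permutation tests p was 0.8, 0.9, and 0.8, and 0.9 after adjustment over the 3 comparisons, where 3 mice against 3 allow no p under 0.1. These tests could therefore not reach 0.05 for a difference of any size, and no conclusion is drawn from them. The ratio's SD was 0.06 in the control group, 0.06 in the OIR group, and 0.17 in the treated OIR group on the log2 scale.

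**Figure D5:**
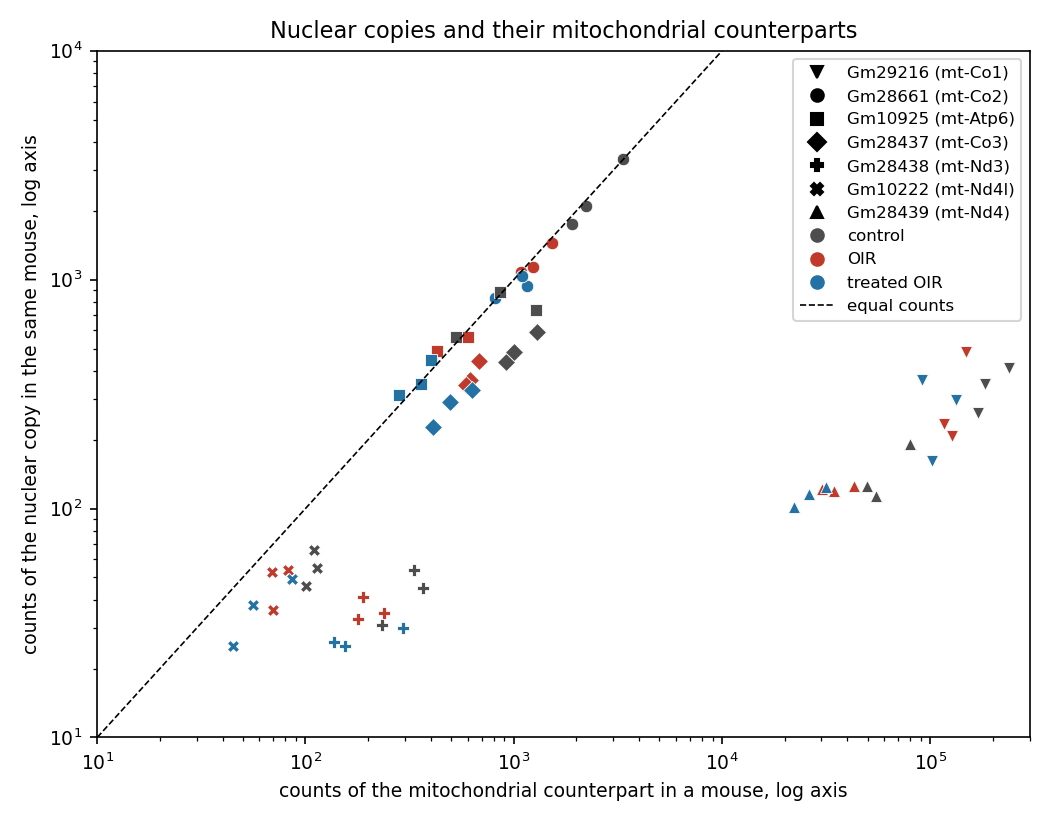
Counts of each nuclear copy against those of its mitochondrial counterpart in the same mouse, both on log axes, with 1 symbol per copy, 1 color per group, and a dashed line at equal counts. Gm28661 lies along the line at 81.2 to 102.5 counts per 100 of mt-Co2, while Gm29216 and Gm28439, whose counterparts reach beyond the copied stretch, lie far under it at 0.155 to 0.462 counts per 100.

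The ratios of the other copies differed widely, also among those that cover nearly all of their counterpart. Gm10925, which is identical to nearly all of mt-Atp6, had 93.0 to 114.8 counts per 100 of mt-Atp6 in 8 of the mice and 57.3 in control mouse 7, where mt-Atp6 stood high. Gm28437 had 45.5 to 48.3 counts per 100 of mt-Co3 in the control group, 58.7 to 64.7 in the OIR group, and 52.5 to 58.9 in the treated OIR group, so that the ratio was higher in every OIR and treated OIR mouse than in control. Gm10222 had 45.5 to 76.8 counts per 100 of mt-Nd4l. Gm28438, which carries the T3C difference printed above, had 10.2 to 21.8 counts per 100 of mt-Nd3.

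Gm29216 had 0.155 to 0.40 counts per 100 of mt-Co1 over all mice. Gm28439 had 0.206 to 0.254 per 100 of mt-Nd4 in the control group, 0.293 to 0.403 in the OIR group, and 0.393 to 0.462 in the treated OIR group, with raw counts of Gm28439 of 113 to 191 counts in the control group, 119 to 126 in the OIR group, and 102 to 124 in the treated OIR group. On the CPM scale Gm28439 was 6.73 ± 0.52 in the control group, 5.92 ± 0.59 in the OIR group, and 6.65 ± 0.40 in the treated OIR group (SD, n = 3 each). Its log2 fold changes were -0.19 (SE 0.18) in OIR and -0.02 (SE 0.18) in treated OIR mice, with adjusted p of 0.564 and 0.968 in edgeR.

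Finally, the nuclear genes that make and handle mitochondrial RNA were examined as a list of 52 genes, covering transcription, DNA replication, RNA processing, RNA stability and decay, rRNA modification, and nuclear regulators. All 52 were tested and none passed in any of the 3 comparisons in edgeR on all 9 mice. Between OIR and control mice, edgeR called 2 lower in a fit of the 2 groups alone, beside 7.44% of all genes called lower. Without treated OIR mouse 2 it called 3 lower and 1 higher, beside 8.59% and 3.95%. It called 1 lower without a filter (338 of 30341 genes) and 1 with at least 10 counts in every mouse (204 of 14762). DESeq2 and limma-voom on all 9 mice each called 1 lower and 1 higher. Over all genes these were 6.93% and 4.44% in DESeq2 and 7.91% and 5.23% in limma-voom. Between treated OIR and control mice DESeq2 called 1 lower, beside 2.45%, and limma-voom 1 lower and 1 higher, beside 2.66% and 2.62%. Between treated OIR and OIR mice neither called any of the 52. In OIR compared with control mice, 24 were below 0 and 28 above, with a median log2 fold change of 0.02, and 4 lower and 6 higher had an unadjusted p below 0.05, beside 12.7% and 11.1% of all genes. In treated OIR mice 21 were below 0 and 31 above, with a median of 0.03, and 3 lower and 3 higher had an unadjusted p below 0.05, beside 8.6% and 10% of all genes. Between treated OIR and OIR mice 0 of the 52 had an unadjusted p below 0.05 in edgeR.

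Polrmt, the mitochondrial RNA polymerase, had log2 fold changes of -0.22 (SE 0.10, edgeR adjusted p = 0.233) in OIR and -0.25 (SE 0.10, edgeR adjusted p = 0.240) in treated OIR mice. Tfam, which packs mitochondrial DNA and starts its transcription, had 0.07 (SE 0.11) and 0.03 (SE 0.11). Lrpprc, which stabilizes mitochondrial mRNAs, had a log2 CPM of 6.25 ± 0.10 in control and 5.84 ± 0.21 in OIR mice (SD, n = 3 each), with a log2 fold change of -0.40 (SE 0.16, edgeR adjusted p = 0.178), and -0.22 (SE 0.16) in treated OIR mice. These 3 genes thus had smaller differences than the rRNAs, and none of them passed the test.

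In OIR compared with control mice, 8 of the 52 were lower and 8 higher without overlap, beside 17.2% and 15.9% of all genes. In treated OIR mice 6 were lower and 7 higher, beside 12.2% and 12.8%. The largest of these differences were those of Esrra among the lower genes, and of Tefm and Prorp among the higher ones. Esrra, a nuclear receptor that drives respiratory chain genes, had a log2 CPM of 5.92 ± 0.11 in the control group, 5.36 ± 0.14 in the OIR group, and 5.25 ± 0.11 in the treated OIR group. Its log2 fold changes were -0.55 (SE 0.11, edgeR adjusted p = 0.0548) and -0.67 (SE 0.11, edgeR adjusted p = 0.102). Tefm, the elongation factor of mitochondrial transcription, had 0.59 (SE 0.20, edgeR adjusted p = 0.123) in OIR mice, and Prorp, the nuclease that cuts the 5′ ends of mitochondrial tRNAs, had 0.50 (SE 0.22) and 0.54 (SE 0.22). In treated OIR mice, Mterf1a, a transcription termination factor, had 0.42 (SE 0.24) and Top1mt, the mitochondrial topoisomerase, had -0.33 (SE 0.14), with adjusted p of 0.373 and 0.255.

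The nuclear genes for the subunits that assemble with the mitochondrial ones were examined as a second list, of 71 subunits of complexes I, III, and IV and ATP synthase. All 71 had log2 fold changes below 0 in OIR compared with control mice, with a median of -0.29, and 1 of them, the complex I subunit Ndufb6, fell (-0.60, SE 0.10, edgeR adjusted p = 0.0408), beside 0.507% of all genes that were lower. In edgeR, none of the 71 passed with sex as a covariate, with scaling by total counts alone, or without any control mouse, any OIR mouse, or treated OIR mouse 5, whereas 13 passed in a fit of the 2 groups alone and 16 without treated OIR mouse 2, beside 7.44% and 8.59% of all genes called lower. An unadjusted p below 0.05 was reached by 38 of them, beside 12.7% of all genes. In treated OIR mice all 71 were below 0 as well, with a median of -0.29, and none passed in edgeR, while 36 had an unadjusted p below 0.05, beside 8.6% of all genes. For OIR against control, DESeq2 on all 9 mice called 14 of the 71 lower, beside 6.93% of all genes, and limma-voom called 8, beside 7.91%. For treated OIR against control they called 11 and 7, beside 2.45% and 2.66% of all genes. The corresponding medians of the 12 tested mitochondrial mRNAs were -0.74 and -0.83, and the difference between the lists was not tested. By complex, the medians of the nuclear subunits in OIR mice were -0.28 for complex I, -0.27 for complex III, -0.32 for complex IV, and -0.29 for ATP synthase.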

How the data were processed

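Retinal RNA from 9 mice (3 per group) was analyzed. The table the authors deposited holds unnormalized read counts, whole numbers with 1 row per gene and 1 column per mouse. The submitters' processing notes name HISAT and CASAVA, with no version. Strandedness, library selection, the counting tool, and the treatment of reads with several equally good places are not given in the sources used here. They bear on the nuclear copies, mt-Nd6, the tRNAs, and the rRNAs.

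Counts were fitted with edgeR 4.0.16 in R 4.3.3 (TMM, default filter, quasi-likelihood test, all 9 mice, 17540 genes), with Benjamini-Hochberg adjustment over all genes and a threshold of 0.05. Log2 CPM used a prior count of 2. p-values measure the spread among these mice. No 2 mice of a group had counts equal within sampling noise. The fit was tested on simulated data. Alternatives were DESeq2 1.42.0, limma 3.58.1 (voom with sample weights), other scalings and filters, sex as a covariate, and leaving out each mouse. Sex was inferred for each mouse from the counts of Xist against those of Ddx3y, Eif2s3y, Kdm5d, and Uty. Python 3.11.15 with pandas 2.3.3, scipy 1.17.1, and matplotlib 3.10.9 was used for the rest.

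Copies were aligned with their counterparts from GENCODE M21 transcripts. The members and the gene lists were chosen with earlier results of these data known. Any member could be named, those with a mean of at least 10 counts with values. Of the genes for mitochondrial RNA, Polrmt, Tfam, and Lrpprc were named, with any that passed and, against control, the 2 largest rises and 2 largest falls without overlap. Of the nuclear subunits, those that passed were named. Prorp was found under an older symbol.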

Additional observations from a re-analysis of the deposited data

How the results depend on the processing

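In every fit run, no member passed the test with higher levels and none passed between treated OIR and OIR mice, and the log2 fold changes of mt-Rnr1, mt-Rnr2, mt-Nd1, mt-Nd2, mt-Co2, mt-Cytb, and Gm28661 against control kept their direction. Depth limits the tRNAs, of which 10 could not be tested. No paired analysis was possible because groups share fewer than 2 replicate numbers, and these name animals. The number of members lower in OIR than in control mice was 4, and became 12 with edgeR on 2 groups, 15 with DESeq2 on all mice, 16 with DESeq2 on 2 groups, 15 with limma-voom, 9 without a filter, 9 with at least 10 counts in every mouse, 0 with total counts alone, and 0 with sex as a covariate. Leaving out each mouse gave 0 to 15. The number of all genes called lower moved as well, from 89 in the main fit. In the order of these other fits it was 1277, 1216, 1719, 1388, 338, 204, 9, and 0. Leaving out each mouse gave 0 to 1556 genes. For treated OIR against control it was 1, and became 0 with edgeR on 2 groups, 16 with DESeq2 on all mice, 12 with DESeq2 on 2 groups, 13 with limma-voom, 0 with DESeq2 size factors, 0 with total counts alone, 3 without a filter, 0 with sex as a covariate, and 0 with copies summed with counterparts, which was added after seeing the data. Leaving out each mouse gave 0 to 1. All genes called lower in treated OIR against control numbered 2 in the main fit. In the order of these other fits they numbered 0, 430, 184, 466, 0, 0, 8, 0, and 0. Leaving out each mouse gave 0 to 3 genes. The cause was not tested. Scaling by total counts alone moved the median of all genes to 0.10 (log2) for OIR against control and to -0.09 for treated OIR against OIR.

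Small log2 values changed sign in some fits, and the ranges that follow are those over the fits that leave out 1 mouse each. In OIR against control, Gm10222 ran from -0.52 to 0.12, Gm29216 from -0.60 to 0.12, and mt-Tl2 from -0.46 to 0.91. Gm29216 became 0.011 with limma-voom, and mt-Tl2 became 0.012 with total counts alone and 0.025 with sex. In treated OIR against control, Gm10222 ran from -0.60 to 0.038, Gm28439 from -0.069 to 0.044, Gm29216 from -0.38 to 0.24, mt-Th from -0.56 to 0.10, and mt-Ts2 from -0.89 to 0.30. Gm28439 became 0.082 with limma-voom and Gm29216 became 0.032 with sex. In treated OIR against OIR, where no member passed, Gm28661 ran from -0.19 to 0.0063, mt-Co1 from -0.060 to 0.090, mt-Co2 from -0.19 to 0.077, mt-Nd1 from -0.21 to 0.071, mt-Nd2 from -0.14 to 0.037, mt-Nd6 from -0.12 to 0.090, and mt-Rnr2 from -0.028 to 0.38. mt-Co1 became -0.014 with upper-quartile scaling, -0.082 with total counts alone, and -0.00096 without a filter, mt-Co2 became 0.077 with limma-voom, and mt-Nd2 became 0.0014 with sex. The log2 ratio of Gm28661 to mt-Co2 ran from -0.037 to 0.028 in OIR against control, from -0.13 to 0.042 in treated OIR against control, and from -0.12 to 0.050 in treated OIR against OIR.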
